A study of Mus musculus with 6 samples.

Results

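The genes described here are 10 genes of the muscle side of the neuromuscular junction, picked by name from the 17558 genes of an RNA sequencing table. They comprise the subunits of the muscle acetylcholine receptor (Chrna1, Chrnb1, Chrnd, Chrng and Chrne) and the genes that gather the receptor into clusters (Agrn, Lrp4, Musk, Dok7 and Rapsn). All 10 were found in the table, and 9 passed the filter on low counts. Chrne did not. They were measured in C2C12 cells, an established line of mouse myoblasts (the dividing precursors of muscle fibres) that join into multinucleate myotubes once serum is lowered. All 6 libraries came from cells kept for 48 h in medium with horse serum, insulin, transferrin and selenium. The 3 groups had 2 libraries each. The control cells (shScr) had the genotype label WT and stably carried a scrambled short hairpin RNA. The other groups stably carried a hairpin against a splice isoform of the pyruvate kinase gene Pkm, with the genotype labels Pkm1 Knockdown (shPkm1) and Pkm2 Knockdown (shPkm2). The design asks what each isoform does in myoblast differentiation. All cells thus carried a hairpin construct, and the labels name no nerve cells. The labels do not say how many hairpins were used for a target, whether a line was a clone or a pool, or whether the 2 libraries of a group were separate cultures. The p-values therefore measure only the spread between these libraries, which may be technical.

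The muscle acetylcholine receptor is a ring of subunits that opens when acetylcholine binds and lets cations depolarise the fibre. It holds alpha (Chrna1), beta (Chrnb1) and delta (Chrnd) subunits together with gamma (Chrng) in the fetal form or epsilon (Chrne) in the adult form. Agrin (Agrn) binds LRP4 (Lrp4), which activates the receptor tyrosine kinase MuSK (Musk). DOK7 (Dok7) is the cytoplasmic adaptor that activates MuSK from within, and rapsyn (Rapsn) anchors the receptors in clusters. C2C12 myotubes are widely used to study these steps, since soluble agrin makes their receptors cluster in the absence of nerve. Factors of the MyoD family bind E-boxes (CANNTG) in promoters of receptor genes.

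The libraries held between 18216896 and 19796036 estimated counts. Across genes, log2 CPM (counts per 1000000 of a library, after edgeR's TMM scaling, which adjusts libraries for their composition) correlated at 0.991 to 0.997 within groups and at 0.87 to 0.932 between groups. The control libraries differed most from each other. Summed over isoforms, Pkm reached 3246 ± 321 CPM in the controls, 2092 ± 133 with shPkm1 and 3726 ± 96.0 with the shPkm2 label (SD, n = 2). The Pkm1 transcript (NM_001253883.1) had 969 ± 15.6 CPM in the controls, 307.2 ± 10.4 with shPkm1 and 323.6 ± 14.3 with shPkm2. It was lower than in shScr in both hairpin groups (log2 fold changes −1.66 and −1.58, edgeR adjusted p = 0.00272 and 0.00124 over transcripts). The Pkm2 transcript (NM_011099.3) had 2197 ± 382 CPM in the controls, 1776 ± 169 with shPkm1 and 3391 ± 86.0 with shPkm2. It was not lower in the libraries labelled shPkm2, where its log2 fold change was 0.63 (adjusted p = 0.0656). A reduction of the isoform named by that label was thus not seen, and the group is called shPkm2 here only after its label. Of 14 markers of myoblasts and myotubes, 14 were detected. Their summed level was 41100 and 29500 CPM in the shScr libraries, 12200 and 14000 in shPkm1, and 2540 and 2390 in shPkm2. The contractile gene Acta1 carried much of this sum in shScr (16850 and 10370 CPM) but little in shPkm2 (60.58 and 61.88 CPM), where Des (1180 and 1119 CPM) carried the largest part. In shPkm1 10 of the 14 were lower and 2 higher, and in shPkm2 11 were lower and 3 higher. Of all tested genes, 31.4% were lower and 31.8% higher in shPkm1, and 34.2% and 33.9% in shPkm2. Higher in both were the proliferation gene Mki67 (log2 fold changes 1.46 and 2.905) and the adhesion gene Vcam1 (1.14 and 1.67). These examples were named after their values had been seen. The part of the markers in the results on the junction genes was not tested, and fewer cells of a type and less RNA per cell cannot be told apart in such bulk samples.

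Promoters of the junction genes are shown first, searched for the letters of the E-box. Of the 10 genes, 7 had entries in a RefSeq promoter table (build GRCm38.p6, 250 bases before to 50 after each annotated start), with 9 promoters between them. Chrnd, Rapsn and Lrp4 had none. An E-box, CANNTG, which reads alike on both strands, was found in 7 of the 9 promoters and in 72.3% of all 32851 promoters of the table. The form CAGCTG, a subset of CANNTG that also reads alike on both strands, was found in 4 of the 9 and in 16.3% of all. At least 2 copies of CAGCTG stood in 2 of the 9 promoters, those of Chrng and Chrna1, and in 1.9% of all. CAGGTG, another subset, was searched on both strands and found in 2 of the 9 and in 20.2% of all. The N-box CCGGAA, also searched on both strands, was added after the sequences had been read and was found in 1 of the 9, that of Chrne, and in 14.9% of all. A match is a description of the letters and not evidence of a bound factor. The 200 bases before the start are printed for 5 genes, 5′ to 3′ on the gene's strand, with E-boxes in capitals. Chrng and Dok7 are shown because they fell most in shPkm2, Chrna1 because it is the most abundant subunit, Musk because it fell least there, and Chrne because it was barely detected. They lie at chr1:87205611-87205810 (plus strand), chr5:35056566-35056765 (plus), chr2:73580339-73580538 (minus), chr4:58285762-58285961 (plus) and chr11:70619195-70619394 (minus), each reaching to the last base before the start in that table, which for Dok7 is the first of 2 annotated starts. By the gene spans given with each gene, the Musk stretch lies wholly and the Dok7 stretch almost wholly inside the annotated gene, and the Chrne stretch overlaps its gene in part, so for these 3 the start used is not the outermost one.
Chrng: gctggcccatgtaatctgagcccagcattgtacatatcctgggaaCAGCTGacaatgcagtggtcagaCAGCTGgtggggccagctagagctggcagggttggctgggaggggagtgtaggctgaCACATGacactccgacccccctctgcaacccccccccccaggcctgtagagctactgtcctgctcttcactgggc
Dok7: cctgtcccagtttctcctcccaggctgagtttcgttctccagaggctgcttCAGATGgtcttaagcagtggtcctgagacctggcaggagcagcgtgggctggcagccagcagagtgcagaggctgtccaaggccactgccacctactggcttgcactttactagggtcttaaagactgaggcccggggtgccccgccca
Chrna1: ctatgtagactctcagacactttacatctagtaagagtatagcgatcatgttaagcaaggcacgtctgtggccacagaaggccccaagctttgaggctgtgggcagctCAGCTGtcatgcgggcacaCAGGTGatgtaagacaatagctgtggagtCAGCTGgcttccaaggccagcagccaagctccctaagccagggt
Musk: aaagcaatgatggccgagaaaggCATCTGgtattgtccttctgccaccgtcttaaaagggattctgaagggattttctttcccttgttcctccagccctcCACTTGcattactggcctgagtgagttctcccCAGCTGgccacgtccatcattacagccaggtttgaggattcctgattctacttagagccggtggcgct
Chrne: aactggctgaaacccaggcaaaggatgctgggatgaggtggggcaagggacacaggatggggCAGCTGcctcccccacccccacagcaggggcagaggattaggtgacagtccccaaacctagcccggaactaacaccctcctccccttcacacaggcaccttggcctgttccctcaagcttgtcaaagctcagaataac
Chrng holds CAGCTG with its first base 155 and 132 bases before the start, and CACATG at 75. Chrna1 holds CAGCTG at 92 and 44 and CAGGTG at 73. Musk holds CATCTG at 177, CACTTG at 100 and CAGCTG at 68, while Dok7 holds CAGATG at 149. Chrne holds CAGCTG at 138 and the N-box at 76. Chrng and Musk, the genes with the largest and the smallest fall in shPkm2, thus hold 3 E-boxes each.

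In the main fit all 9 tested genes were lower in both hairpin groups. The calls for Lrp4 in shPkm1 and for Musk in both groups depended on the processing. In shPkm1 against shScr 9 of 9 were lower with edgeR's quasi-likelihood test (adjusted p under 0.05 over 12643 genes), where 31.4% of all tested genes were lower and 63.1% were called in either direction. In shPkm2 against shScr 9 of 9 were lower, where 34.2% of all tested genes were lower and 68.0% were called. None rose in either. The median log2 fold change of the 9 was −1.05 in shPkm1 and −1.90 in shPkm2, beside −0.000147 and 0.00736 over all genes. Both comparisons use the same control libraries. In shPkm2 against shPkm1, 7 of 9 were lower, where 27.3% of all tested genes were lower and 53.0% were called, and Musk and Agrn were not called. The median of the 9 was −0.98 there, beside 0.00464 over all genes.

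**Figure D1:**
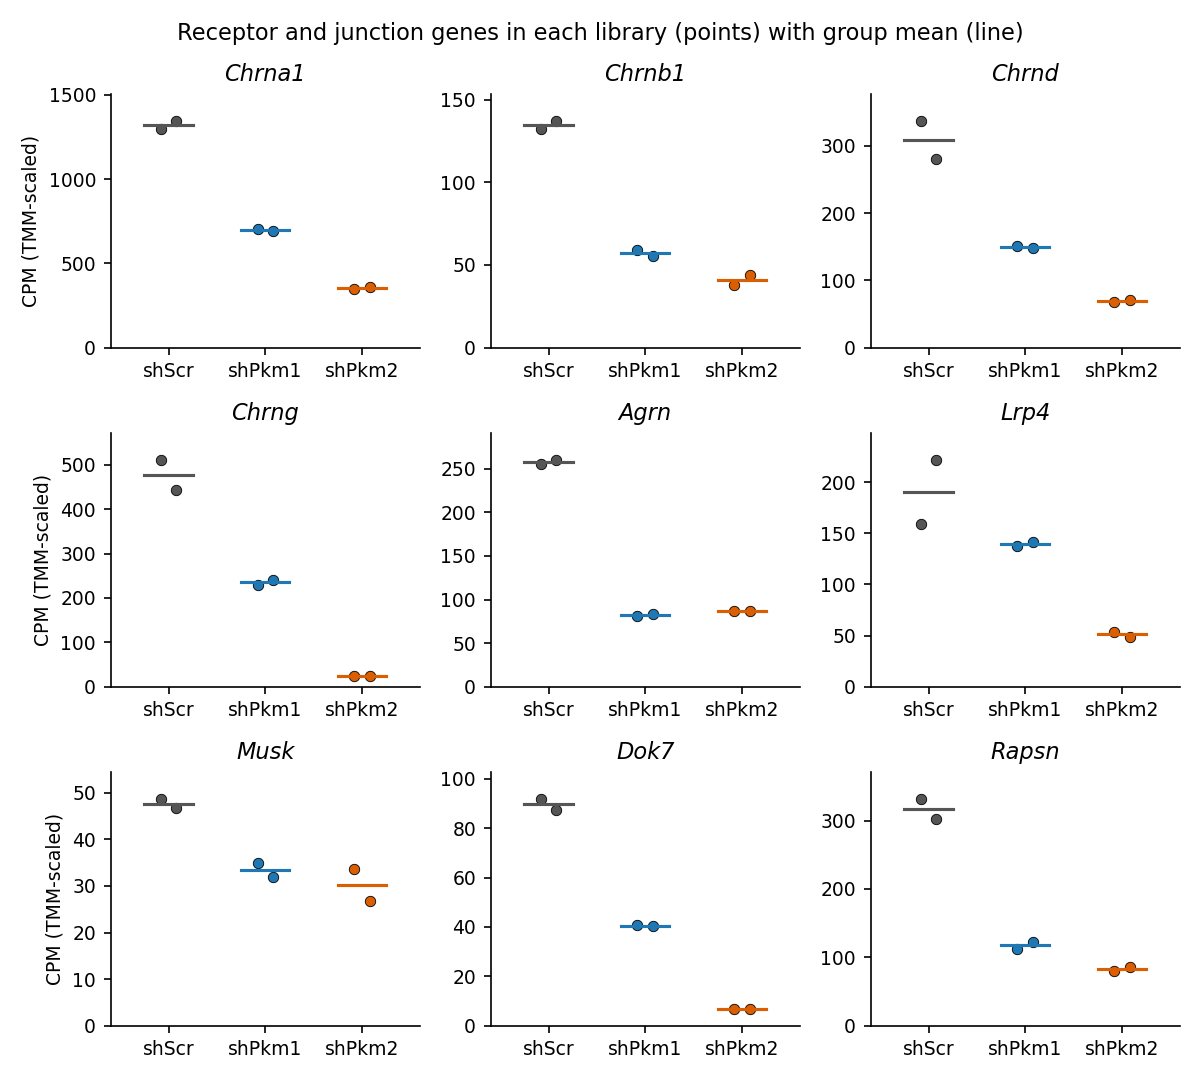
CPM (TMM-scaled, vertical axis from 0) of the receptor and junction genes in each library, by group, with points for libraries and lines for group means of 2. The shScr points lie above those of both hairpin groups for each tested gene, and Chrng and Dok7 are near the axis in shPkm2.

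Chrna1 (NCBI gene 11435, chr2:73563281-73580338 in GRCm38.p6) encodes the alpha subunit, which carries most of the acetylcholine binding site. It was at 1298 and 1346 CPM in shScr, 702.0 and 694.5 in shPkm1, and 347.5 and 360.2 in shPkm2. The groups formed 3 separate steps with little spread inside each. It was 1.89-fold lower in shPkm1 (log2 fold change −0.92, SE 0.108, edgeR adjusted p = 8.58e-06) and 3.74-fold lower in shPkm2 (−1.90, SE 0.111, adjusted p = 6.4e-09). The difference between the hairpin groups was −0.98 (SE 0.108, adjusted p = 5.7e-06).

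Chrnd (NCBI gene 11447, chr1:87190597-87200070) encodes the delta subunit, whose interface with alpha forms 1 of the binding sites. It was at 337.3 and 280.2 CPM in shScr, 151.0 and 148.1 in shPkm1, and 68.58 and 71.33 in shPkm2. These were again separate steps, with the widest spread between the controls. Its level was 2.06-fold lower in shPkm1 (log2 fold change −1.05, SE 0.108, edgeR adjusted p = 2.77e-06) and 4.41-fold lower in shPkm2 (−2.14, SE 0.112, adjusted p = 2.2e-09).

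Chrng (NCBI gene 11449, chr1:87205811-87211835) encodes the gamma subunit of the fetal receptor. It was at 511.7 and 444.0 CPM in shScr, 230.2 and 241.5 in shPkm1, and 24.10 and 23.38 in shPkm2. It was thus close to Chrnd in its response to shPkm1 and far below it in shPkm2. Gamma was 2.03-fold lower in shPkm1 (log2 fold change −1.02, SE 0.104, edgeR adjusted p = 2.47e-06) and 20.1-fold lower in shPkm2 (−4.33, SE 0.121, adjusted p = 8.63e-12). Between the hairpin groups it was 9.93-fold lower in shPkm2 (−3.31, SE 0.116, adjusted p = 1.12e-10), against −1.10 (SE 0.110, adjusted p = 2.31e-06) for Chrnd. Chrnd and Chrng lie next to each other on chromosome 1, with 5740 bases and 0 annotated genes between them.

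Chrnb1 (NCBI gene 11443, chr11:69784036-69795966) encodes the beta subunit, through which the receptor contacts the clustering machinery. It was at 132.4 and 137.2 CPM in shScr, 58.78 and 55.31 in shPkm1, and 37.99 and 43.71 in shPkm2. The hairpin groups lay near each other, without overlap, and well below the controls. It was 2.36-fold lower in shPkm1 (log2 fold change −1.24, SE 0.102, edgeR adjusted p = 3.63e-07) and 3.30-fold lower in shPkm2 (−1.72, SE 0.104, adjusted p = 8.9e-09). The difference between the hairpin groups was −0.48 (SE 0.104, adjusted p = 0.00158).

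Chrne, which encodes the epsilon subunit that replaces gamma in adult muscle, was at the floor of detection. It (NCBI gene 11448, chr11:70614883-70619213) had 2 and 1 estimated counts in the shScr libraries and 0 in each of the other 4. No fold is given, since all libraries were at or under the floor of 3 counts. Epsilon made up 0.0248% and 0.0127% of the gamma plus epsilon counts of the shScr libraries (Clopper-Pearson 95% intervals 0.003% to 0.0894% and 0.000322% to 0.0709%). A count of 0 beside 4324 and 4777 gamma counts in shPkm1 allows an epsilon share of up to 0.0694% and 0.0628% at the floor of 3 counts, and of up to 0.0853% and 0.0772% by the Clopper-Pearson 95% interval. In shPkm2, 0 beside 512 and 490 gamma counts allows up to 0.586% and 0.612% at the floor, and up to 0.718% and 0.75% by that interval. A change in the epsilon share was therefore not detectable at this depth, and the lower gamma level in shPkm2 did not come with a detected epsilon transcript. These intervals and limits cover counting error only.

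TPM (transcripts per 1000000, as deposited and summed per gene, which allows levels of different genes to be compared) gave the make-up of the receptor transcripts. The 4 detected subunits summed to 983.8 and 1049 TPM in shScr, 683.7 and 649.8 in shPkm1, and 263.2 and 261.8 in shPkm2. Chrng made up 36.5% and 33.7% of that sum in shScr, 33.8% and 35.3% in shPkm1, and 9.65% and 8.89% in shPkm2. Its share overlapped between shScr and shPkm1 and was far lower in shPkm2. Chrna1 made up 39.9% and 43.7% in shScr, 44.5% and 43.7% in shPkm1, and 59.6% and 59.0% in shPkm2. The TPM ratio of Chrng to Chrnd was 2.40 and 2.52 in shScr, 2.41 and 2.58 in shPkm1, and 0.558 and 0.519 in shPkm2, so gamma went from the more to the less abundant of the pair. The TPM ratio of Chrna1 to Chrnd was 2.62 and 3.27 in shScr, 3.17 and 3.19 in shPkm1, and 3.45 and 3.44 in shPkm2, a far narrower range. With 2 libraries a group an exact permutation test cannot give a p below 0.333, so these shares and ratios are given as descriptions.

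**Figure D2:**
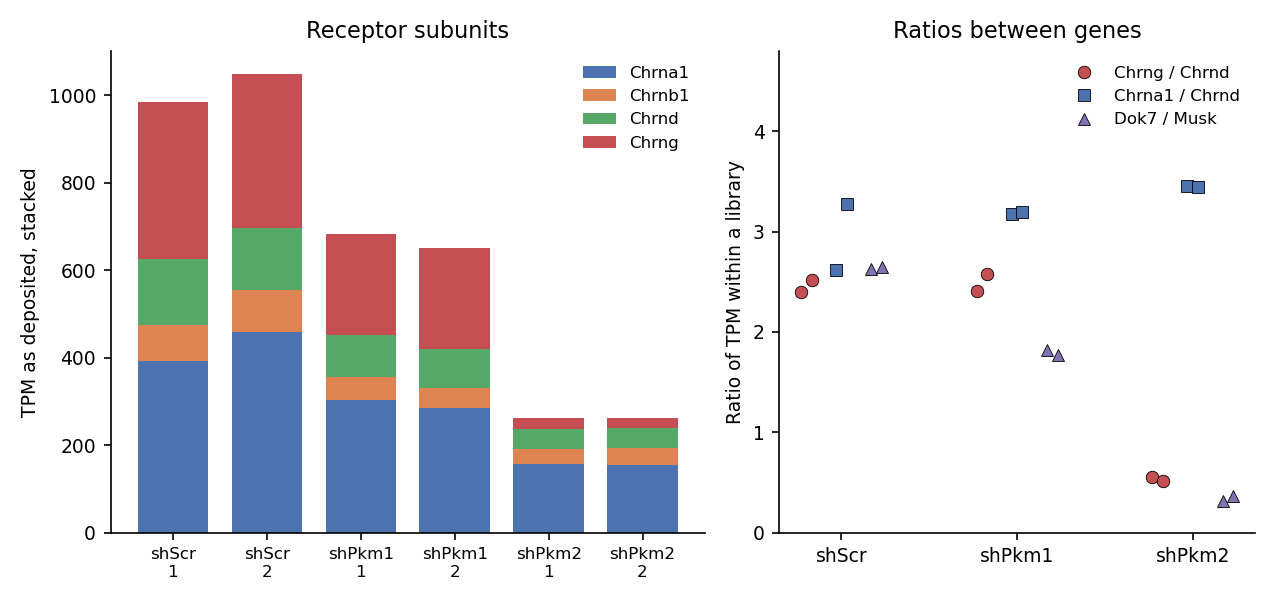
Left, TPM of Chrna1, Chrnb1, Chrnd and Chrng stacked for each of the 6 libraries (axis from 0). Right, ratios of TPM between genes within each library, with 1 point per library. The Chrng part of the bars shrinks to 9.65% and 8.89% in shPkm2, and the Chrng to Chrnd and Dok7 to Musk ratios drop there while Chrna1 to Chrnd stays between 2.62 and 3.45.

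Agrn (NCBI gene 11603, chr4:156165290-156197533) encodes agrin, the secreted proteoglycan whose nerve-made splice forms induce clustering and which muscle cells also make. It was at 255.9 and 260.5 CPM in shScr, 81.41 and 83.22 in shPkm1, and 87.41 and 87.08 in shPkm2. The hairpin groups were at nearly the same level. Agrn was 3.14-fold lower in shPkm1 (log2 fold change −1.65, SE 0.0945, edgeR adjusted p = 1.44e-08) and 2.96-fold lower in shPkm2 (−1.56, SE 0.094, adjusted p = 8.58e-09). In shPkm2 against shPkm1 the log2 difference was 0.08 (95% interval −0.12 to 0.29, adjusted p = 0.472), although the libraries did not overlap. Among the 9 genes Agrn had the largest fall in shPkm1 and the second smallest in shPkm2. The gene counts do not separate nerve-type from muscle-type splice forms of agrin.

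Lrp4 (NCBI gene 228357, chr2:91457456-91513901) encodes the agrin receptor that sits beside MuSK. It was at 159.0 and 222.0 CPM in shScr, 137.3 and 141.6 in shPkm1, and 53.90 and 48.76 in shPkm2. The controls differed more from each other than the lower control differed from shPkm1. Lrp4 was 3.71-fold lower in shPkm2 (log2 fold change −1.89, SE 0.140, edgeR adjusted p = 6.97e-08) and 2.72-fold lower in shPkm2 than in shPkm1 (−1.44, SE 0.139, adjusted p = 1.64e-06). Its 1.37-fold fall in shPkm1 (−0.45, SE 0.134, adjusted p = 0.0103) did not hold under several alternatives. Without shScr replicate 2 it was −0.19 (adjusted p = 0.109), without shPkm1 replicate 1 −0.41 (0.0977), without shPkm1 replicate 2 −0.47 (0.0581), scaled to library totals −0.26 (0.146), and with limma on log2(TPM + 1) −0.04 (0.852). The adjusted p of that fall ranged from 7.78e-08 to 0.856 over all alternatives run.

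Musk (NCBI gene 18198, chr4:58285729-58377848) encodes the kinase at the centre of the pathway. Its fall in shPkm2 was the smallest of the 9 genes. It was at 48.74 and 46.66 CPM in shScr, 34.87 and 31.90 in shPkm1, and 33.66 and 26.77 in shPkm2. Both hairpin groups lay below the controls and overlapped each other. Musk was 1.43-fold lower in shPkm1 (log2 fold change −0.51, SE 0.120, edgeR adjusted p = 0.00219) and 1.58-fold lower in shPkm2 (−0.66, SE 0.120, adjusted p = 0.000282). Between the hairpin groups the log2 difference was −0.14 (95% interval −0.40 to 0.12, adjusted p = 0.336). With limma on log2(TPM + 1) both falls missed the threshold, at −0.19 (adjusted p = 0.263) and −0.30 (0.0758). Scaled to library totals in edgeR they were smaller too, at −0.32 (adjusted p = 0.0444) and −0.33 (0.033). Over all alternatives the adjusted p ranged from 0.000104 to 0.263 in shPkm1 and from 1.64e-06 to 0.0758 in shPkm2.

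Dok7 (NCBI gene 231134, chr5:35056571-35087839), the adaptor that activates MuSK, had the second largest fall in shPkm2. It was at 91.97 and 87.45 CPM in shScr, 40.62 and 40.25 in shPkm1, and 6.872 and 6.632 in shPkm2. The libraries of each group nearly coincided, and the groups lay far apart. Dok7 was 2.22-fold lower in shPkm1 (log2 fold change −1.15, SE 0.0963, edgeR adjusted p = 4.31e-07) and 13.3-fold lower in shPkm2 (−3.73, SE 0.114, adjusted p = 1.46e-11). Between the hairpin groups it was 5.98-fold lower in shPkm2 (−2.58, SE 0.114, adjusted p = 8.07e-10). The TPM ratio of Dok7 to Musk went from 2.63 and 2.65 in shScr to 1.82 and 1.77 in shPkm1 and 0.321 and 0.362 in shPkm2. The adaptor transcript thus went from more to less abundant than that of its kinase.

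Rapsn (NCBI gene 19400, chr2:91035472-91045729) encodes rapsyn, the scaffold that binds the receptor under the membrane. It was at 331.9 and 302.2 CPM in shScr, 112.4 and 122.1 in shPkm1, and 80.59 and 86.03 in shPkm2. As with Chrnb1, most of the distance from the controls was already present in shPkm1. Rapsn was 2.70-fold lower in shPkm1 (log2 fold change −1.435, SE 0.102, edgeR adjusted p = 9.74e-08) and 3.81-fold lower in shPkm2 (−1.93, SE 0.104, adjusted p = 2.96e-09). Between the hairpin groups it was 1.41-fold lower in shPkm2 (−0.49, SE 0.102, adjusted p = 0.00119). The TPM ratio of Rapsn to Chrna1 was 0.698 and 0.615 in shScr, 0.435 and 0.480 in shPkm1, and 0.635 and 0.652 in shPkm2, so it was lower in shPkm1 than in either of the other groups.

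**Figure D3:**
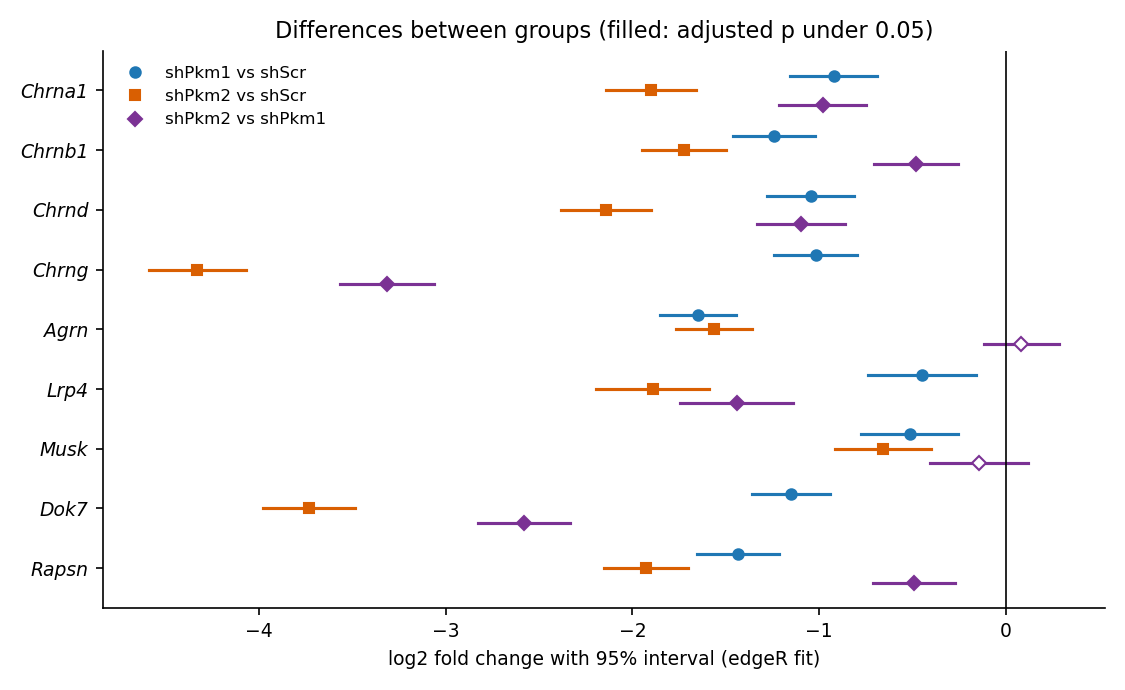
Log2 fold changes (horizontal axis) of the 9 tested genes with 95% intervals from the edgeR fit, for each pair of groups, with filled symbols for adjusted p under 0.05. The shPkm1 against shScr values lie between −1.65 and −0.45, while those of shPkm2 against shScr reach −3.73 for Dok7 and −4.33 for Chrng. In shPkm2 against shPkm1 the intervals of Musk and Agrn include 0.

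The size of these falls depended on the scaling between libraries. Scaling to library totals moved the median of all genes to 0.194 in shPkm1, 0.332 in shPkm2 and 0.135 between the hairpin groups. The share of calls that were higher went from 50.3%, 49.8% and 48.4% to 65.8%, 69.3% and 61.3%. The median of the 9 junction genes then stood at −0.846, −1.58 and −0.851, with 8, 9 and 7 of 9 lower. Of all 12643 tested genes, 2656, 2702 and 2699 were lower after that scaling. With limma on log2(TPM + 1) the junction median stood at −0.642, −1.44 and −0.913, with 7, 8 and 7 of 9 lower. There 7926, 8744 and 6017 of the 12643 genes were called in either direction, and the share that was lower is not given here. On that scale the falls in shPkm1 of Chrna1 (−0.53), Chrnd (−0.64), Chrng (−0.63) and Dok7 (−0.74) were smaller than in the count fit by over 1.5 times and still passed the threshold. With log2(TPM + 0.1) they were −0.53, −0.65, −0.63 and −0.76.

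Levels of different genes were ranked by TPM. In shScr the order from high to low was Chrna1, Chrng, Rapsn, Chrnd, Chrnb1, Agrn, Dok7, Lrp4, Musk and Chrne, where the libraries of Dok7 (39.96 and 42.95 TPM) and Lrp4 (26.52 and 41.11 TPM) overlapped. In shPkm1 Lrp4 stood above Dok7, and Agrn had moved below both, at 21.51 and 20.01 TPM. In shPkm2 Chrng had moved from the second place to the fifth, at 25.39 and 23.28 TPM, where it overlapped Agrn at 23.66 and 21.74 TPM. Musk (13.92 and 11.26 TPM) and Lrp4 (13.37 and 11.48 TPM) also overlapped there, and Dok7, at 4.47 and 4.08 TPM, was the lowest of the detected genes. Chrna1 led in each group, with 392.2 and 458.6 TPM in shScr, 303.9 and 284.1 in shPkm1, and 156.9 and 154.4 in shPkm2.

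Transcripts of a gene share reads, so the split of counts between them is uncertain. Of the 33 transcripts of the 10 genes in the table, 29 passed the filter. In shPkm1 against shScr 8 of them, from 7 genes, were lower, where 5.36% of all 33433 tested transcripts were lower and 10.8% were called. In shPkm2 against shScr it was 11, from 8 genes, beside 9.32% lower and 17.2% called of all, and in shPkm2 against shPkm1 7, from 6 genes, beside 5.04% and 7.91%. None was higher. Chrng had 2 transcripts. NM_009604.3, with 66.0% to 75.3% of the gene's counts across libraries, had log2 fold changes of −0.89 in shPkm1 and −4.32 in shPkm2, and XM_006529078.3 had −1.21 and −4.265. Dok7 was mostly 1 predicted transcript (XM_017320832.1, 89.7% to 96.4% of its counts). The counts of Musk were spread over 8 transcripts, of which XM_006537661.2 took from 16.9% to 58.0%, and no single Musk transcript was called in any comparison.

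Genes of the surrounding pathway moved in both directions. Among 26 genes of MuSK signalling and receptor clustering outside the core, 10 were lower and 6 higher in shPkm1, where 31.4% of all tested genes were lower and 31.8% higher. In shPkm2 12 were lower and 8 higher, where 34.2% were lower and 33.9% higher. Their median log2 fold changes were −0.109 and −0.105. Where the mean count was 50 or more, the 2 that fell most and the 2 that rose most in shPkm1 were the ligand Wnt4 (log2 fold change −1.06), the Dishevelled protein gene Dvl3 (−0.88), the kinase gene Pak1 (1.18) and Pdzrn3 (0.89), which encodes a ubiquitin ligase that acts on MuSK. By the same rule they were in shPkm2 Wnt9a (−3.41), the Cdk5 activator gene Cdk5r1 (−1.78), Pak1 (1.185) and the kinase gene Abl1 (0.63). In shPkm2 against shPkm1 8 of the 26 were lower and 5 higher, where 27.3% and 25.7% of all were, with a median of −0.179. Wnt9a (−2.60) and Cdk5r1 (−1.32) fell most there at a mean of 50 or more counts, and Dvl2 rose most (0.53). Below that limit Wnt11 fell further (−3.10), named after its values had been seen.

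Genes of the postsynaptic scaffold, which links the receptor to the cytoskeleton, are counted beside the 31.4%, 34.2% and 27.3% of all tested genes that were lower in shPkm1, in shPkm2 and in shPkm2 against shPkm1. Of 14 tested, 10 were lower and 1 higher in shPkm1 (median −0.512), 10 and 1 in shPkm2 (median −1.10), and 9 and 1 in shPkm2 against shPkm1 (median −0.372). These counts are a description, and they include Utrn as lower in shPkm1. Scn4a, the muscle sodium channel that carries the action potential away from the synapse, was at 50.9 and 32.3 CPM in shScr, 5.17 and 6.27 in shPkm1, and 0.471 and 0.191 in shPkm2. Its log2 fold change was −2.86 (SE 0.214, edgeR adjusted p = 1.55e-07) in shPkm1. In shPkm2 it rested on 10 and 4 counts and was −6.94 (SE 0.326, adjusted p = 8.06e-10). Sntb1, which encodes a syntrophin, fell by 1.47 in shPkm1 and by 4.27 in shPkm2 on the log2 scale, while its relative Sntb2 rose in shPkm2 (0.55). Ank3 was the 1 gene of this list called higher in shPkm1 (0.67). Utrn, which encodes the utrophin of the synaptic membrane, was at a log2 fold change of −0.25 in shPkm1 (adjusted p = 0.0457) and −0.16 in shPkm2 (0.175). The call in shPkm1 was lost with library totals (−0.05, adjusted p = 0.671) and without shScr replicate 1 (adjusted p = 0.11), shPkm1 replicate 1 (0.246), shPkm1 replicate 2 (0.113), shPkm2 replicate 1 (0.0789) or shPkm2 replicate 2 (0.0787). The sign for Utrn turned to 0.08 in shPkm1 and 0.24 in shPkm2 with limma on log2(TPM + 1), and to 0.17 in shPkm2 with library totals, so no direction is given for it.

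Genes of the synaptic basal lamina and cleft moved in both directions in shPkm1, where 31.4% of all genes were lower and 31.8% higher. In shPkm2 most were called lower in the count fit, against shScr and against shPkm1. Of all genes, 34.2% were lower and 33.9% higher against shScr, and 27.3% were lower and 25.7% higher against shPkm1. Of 13 tested genes, 3 were lower and 6 higher in shPkm1 (median 0.0957), 10 lower and 1 higher in shPkm2 (median −0.581), and 10 lower and 1 higher in shPkm2 against shPkm1 (median −0.63). These counts are a description and depend on the scaling. In TPM the laminin chain genes Lamb1, Lamb2 and Lamc1 overlapped between shScr and shPkm2. Lamb1, for instance, had 47.1 and 60.02 TPM in shScr and 63.58 and 55.18 in shPkm2. Lama4, which encodes a laminin chain of the synapse, was 2.26 higher on the log2 scale in shPkm1 and stood at −3.70 in shPkm2 against shPkm1. Bgn, which encodes the proteoglycan biglycan, rose by 2.21 in shPkm1. Against shScr both were lower in shPkm2 (−1.44 and −1.01). Nid1 rose in both hairpin groups (1.34 and 1.29) and was the 1 gene of this list called higher in shPkm2 against shScr. The summed level of 7 fibroblast markers, of which Thy1 was at 3 counts or fewer throughout, was 1910 and 1740 CPM in shScr, 8640 and 8970 in shPkm1, and 323 and 338 in shPkm2. Col1a1 made up most of that sum in shScr and shPkm1 but not in shPkm2, with 1641 and 1468 CPM in shScr, 8232 and 8605 in shPkm1, and 154.3 and 139 in shPkm2. Of the 5 tested markers, 4 were higher and Ly6a lower in shPkm1, and in shPkm2 3 were lower while Pdgfra (2.46) and Cd34 (1.30) were higher. These markers were named after their values had been seen, and their part in the changes of Lama4 and Bgn was not tested. Ache, the acetylcholinesterase gene, had 200 and 90 counts in shScr, 50 and 73 in shPkm1, and 10 and 8 in shPkm2. Its log2 fold change was −1.47 in shPkm1 (SE 0.348, edgeR adjusted p = 0.0025) and −4.35 in shPkm2 (SE 0.468, adjusted p = 2.59e-06). Without shScr replicate 1 the fall of Ache in shPkm1 was −0.67, and without shPkm1 replicate 1 it was −1.24 and missed the threshold (adjusted p = 0.0507). Colq, the collagen tail that anchors this enzyme in the cleft, had 334 and 213 counts in shScr, 45 and 50 in shPkm1, and 0 and 7 in shPkm2. Its log2 fold change was −2.745 in shPkm1 (SE 0.322, edgeR adjusted p = 8.56e-06). In shPkm2 it was −6.58 (adjusted p = 7.09e-08), but −5.60 and −11.26 without shPkm2 replicate 1 and replicate 2, so its size there is uncertain.

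Neuregulin signalling feeds the transcription of synaptic genes through ERBB receptors and ETS factors. Of 8 tested genes, 3 were lower and 4 higher in shPkm1 (median 0.266), 2 and 6 in shPkm2 (median 0.782), and 2 and 4 in shPkm2 against shPkm1 (median 0.215). Of all tested genes, 31.4% were lower and 31.8% higher in shPkm1, 34.2% and 33.9% in shPkm2, and 27.3% and 25.7% between the hairpin groups, and with 8 genes these counts give no more than a description. The receptor gene Erbb3 was at 62.2 and 49.2 CPM in shScr, 13.95 and 11.98 in shPkm1, and 1.13 and 1.05 in shPkm2, with log2 fold changes of −2.10 and −5.67. Its partner Erbb2 fell in both (−0.99 and −0.94). The ligand gene Nrg1 rose by 2.30 and 1.39, and the ETS factor gene Etv4 by 0.56 and 2.61. In shPkm2 against shPkm1, at a mean of 50 or more counts, Etv4 (2.05) and Dusp6 (1.59) rose most. Erbb3 (−3.56) and Nrg1 (−0.91) fell most there. Erbb3 is also among 8 Schwann cell markers, 7 of them in the table. These summed to 68.5 and 55 CPM in shScr, 26.1 and 23.5 in shPkm1, and 27.2 and 25.1 in shPkm2, and the defining factor Sox10 was at 0 in all libraries. The higher sum in shScr was that of Erbb3 itself. Of the other tested markers in shPkm2, Egr2 (log2 fold change 2.27) and Mbp (1.42) were higher, both named after their values had been seen. Among 10 motor neuron markers, 8 in the table, Mnx1, Syt2 and Snap25 were at 0 in all libraries, while the sum was 14.5 and 28.8 CPM in shScr, 6.39 and 7.48 in shPkm1, and 93.2 and 88.3 in shPkm2. In shScr and shPkm2 that sum was almost all from the neurofilament genes Nefl (57.47 and 55.39 CPM in shPkm2) and Nefm (34.17 and 31.63), which were lower in shPkm1 than in shScr (−2.14 and −2.84), where Syt1 was higher (2.56). Endothelial and immune markers summed to between 1.46 and 4.47 CPM.

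Genes of a list of transcription factors of receptor genes and activity-dependent repressors moved in both directions. The list also holds Id and Hdac genes. Of 20 tested, 8 were lower and 8 higher in shPkm1 (median −0.044), 8 and 9 in shPkm2 (median 0.0868), and 9 and 7 in shPkm2 against shPkm1 (median −0.219). Of all tested genes, 31.4% were lower and 31.8% higher in shPkm1, 34.2% and 33.9% in shPkm2, and 27.3% and 25.7% in shPkm2 against shPkm1. With 20 genes these counts are a description. Muscle factors that act on E-boxes, Myod1 and Myog, fell, while Myf5, of the same family, rose in shPkm2 (log2 fold change 1.74, edgeR adjusted p = 9.39e-09) and was not called in shPkm1 (0.25, adjusted p = 0.0588). Tcf3, Tcf4 and Tcf12, whose proteins pair with these factors on E-boxes, also rose in shPkm2 (0.61, 0.37 and 0.38), and Tcf4 and Tcf12 rose in shPkm1 as well (0.61 and 0.57). The Tcf genes were named after their values had been seen. Myod1 was at 409.1 and 375.5 CPM in shScr, 208.0 and 213.8 in shPkm1, and 78.19 and 89.75 in shPkm2, with log2 fold changes of −0.90 (edgeR adjusted p = 8.09e-06) and −2.22 (1.19e-09). Myog was at 2336 and 1988 CPM in shScr, 1097 and 1162 in shPkm1, and 49.19 and 56.87 in shPkm2, with log2 fold changes of −0.94 (adjusted p = 3.19e-05) and −5.35 (1.06e-11). In shPkm1 the fall of Myog was near those of Chrna1, Chrnd and Chrng. In shPkm2 it was larger than that of Chrng and far larger than those of the other subunits. Mef2c, the partner of these factors, had log2 fold changes of −2.25 and −6.02, but its controls held 367 and 97 counts, and without shScr replicate 1 the fall in shPkm1 was −0.88. Id2, whose protein blocks E-box factors, rose by 1.91 and 2.58, Id3 rose by 1.19 and 2.38, and the repressor gene Snai2 rose by 1.94 and 1.59. Whether these factors bear on the receptor genes was not tested.

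Genes for receptor assembly, glycosylation and turnover were likewise mixed. Of 12 tested, 4 were lower and 4 higher in shPkm1 (median 0.0889), 5 and 4 in shPkm2 (median −0.18), and 6 and 3 in shPkm2 against shPkm1 (median −0.345). The shares of all tested genes were 31.4% lower and 31.8% higher in shPkm1, 34.2% and 33.9% in shPkm2, and 27.3% and 25.7% in shPkm2 against shPkm1. With 12 genes these counts are a description. The large falls were of Trim63 (−2.78 and −6.23) and Trim54 (−1.54 and −5.34), which encode muscle ubiquitin ligases. Fbxo32, of the same list, did not share them. It was at 67.57 and 72.65 CPM in shScr, 36.36 and 34.53 in shPkm1, and 63.03 and 58.54 in shPkm2. It was lower in shPkm1 (−0.98) and higher in shPkm2 against shPkm1 (0.78). Folding and glycosylation genes went both ways. The chaperone gene Calr rose in shPkm1 (0.75) and Canx in shPkm2 (0.43). Alg14 rose in both (0.58 and 0.36), and Dpagt1, whose enzyme starts sugar chains, rose in shPkm2 (0.51). Gfpt1, which encodes an enzyme that makes amino sugars, was lower in both in the count fit (−0.48 and −0.45). Gmppb was higher in shPkm1 (0.41) and lower in shPkm2 (−0.54). In TPM the shPkm2 libraries overlapped those of shScr for both genes. Gfpt1 had 22.79 and 21.61 TPM in shScr and 22.98 and 21.86 in shPkm2. Gmppb had 10.42 and 14.7 TPM in shScr and 11.54 and 11.87 in shPkm2. Both were named after their values had been seen. Of 11 genes for other nicotinic subunits, mostly neuronal, 8 were in the table and only Chrnb2 passed the filter. It was not called in either comparison with shScr (0.36 and −0.40, adjusted p = 0.47 and 0.445).

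**Figure D4:**
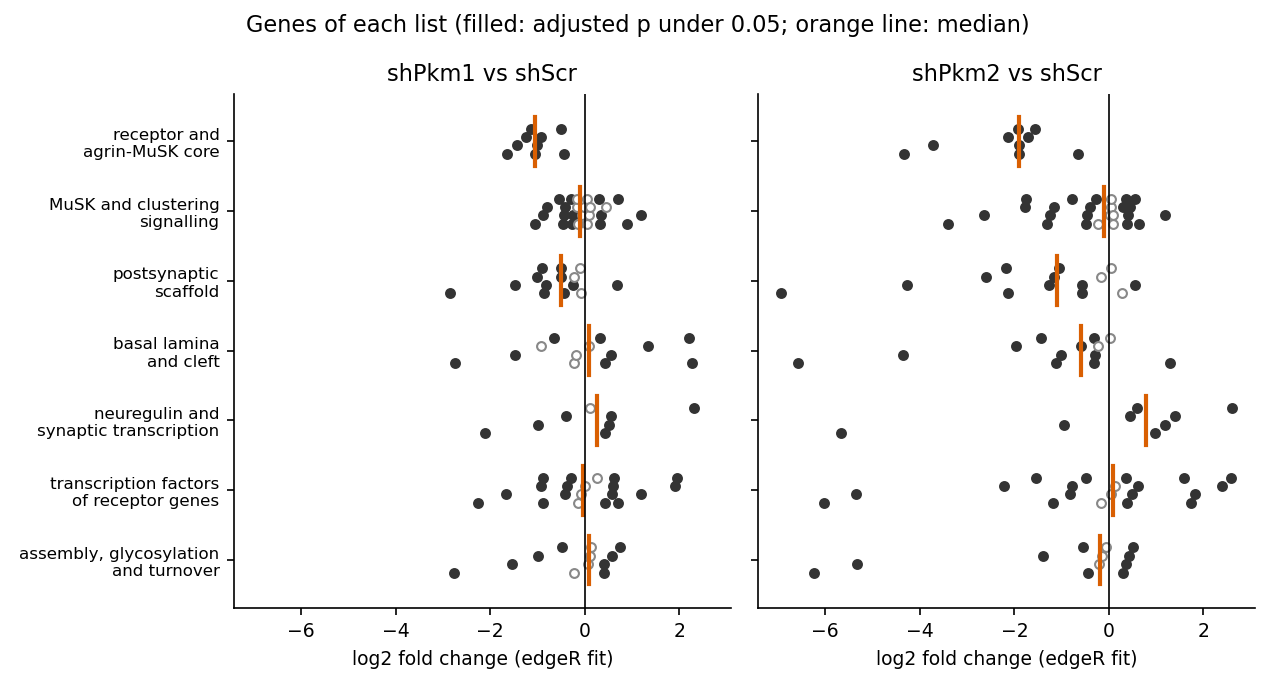
Log2 fold changes (horizontal axis) of the genes of each list in shPkm1 and shPkm2 against shScr, with 1 point per tested gene, filled where the adjusted p was under 0.05, and an orange line at the median. The points of the receptor and agrin-MuSK genes all lie below 0, with medians of −1.05 and −1.90, whereas each of the other 6 lists drawn holds points on both sides.

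For 3 members the genes most alike in pattern were sought among 10707 genes, by Euclidean distance of log2 CPM centred on each gene over the 6 libraries. The nearest to Chrna1 were Amacr (distance 0.0836), Vash2 (0.0981) and H2-K1 (0.205). For Musk they were Zfp84 (0.144), Txnrd3 (0.153) and Nek3 (0.165), and for Agrn Flcn (0.107), Unc93b1 (0.181) and Helz2 (0.22). None of these belonged to the lists of junction genes.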

How the data were processed

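RNA of 6 libraries was sequenced, with groups taken from the sample titles. Per the submitters' processing notes, HISAT, StringTie, Bowtie, RSEM and DESeq2 were used with build mm10, while versions, read length, strandedness and filters are not given in the sources used here. Per the file headers, the deposited table holds for each of 57920 transcripts an estimated count, an FPKM and a TPM. The deposited estimated counts were not all whole numbers, and were summed per NCBI gene (17558 genes) and rounded. Symbols from a table of NCBI numbers matched 17445 genes, and the other 113 held 0.059% to 0.148% of the counts. The TPM that the authors deposited, scaled to transcript length and to 1000000 per library, were summed per gene for levels between genes. The authors' 9 columns of group means and the 6 FPKM columns were not used.

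The gene test was that of edgeR 4.0.16 in R 4.3.3, with filterByExpr (minimum count 10, minimum total 15), TMM scaling, 1 coefficient per group over all 6 libraries, the two-sided quasi-likelihood test, and Benjamini-Hochberg adjustment over 12643 genes at a threshold of 0.05. Transcripts were tested likewise. Standard errors were taken as |log2 fold change| over the square root of F. The code was tested on simulated data with known changes in far fewer genes than were called here. That test does not bear on the scaling between libraries where most genes change. A floor of 3 counts per library was chosen, at totals of 18216896 to 19796036 counts. Libraries of a group differed by more than sampling noise, with a chi-square per degree of freedom of 6.16 to 32.3.

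The 10 genes and the lists were chosen with earlier results of these data known. Named were the 10 genes, Pkm, Myod1, Myog, Ache, Colq and Utrn, from each pathway list up to 2 rises and 2 falls per comparison with a mean of at least 50 counts, and the 3 genes nearest in pattern to Chrna1, Musk and Agrn. Markers were named as whole lists. Alternatives were size factors of DESeq2, library totals, other filters, DESeq2 1.42.0, a block for the replicate number, fits without the group that is not compared, limma 3.58.1 on log2(TPM + 1) and log2(TPM + 0.1), scales on which changes of low genes are understated, and leaving out each library in turn. Tables and plots were made with Python 3.11.15, pandas 2.3.3 and matplotlib 3.10.9.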

Additional observations from a re-analysis of the deposited data

How the results depend on the processing

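The counts of junction genes called lower held under the alternatives: 7 to 9 of 9 in shPkm1, 8 to 9 in shPkm2 and 7 in shPkm2 against shPkm1, with none higher. Called genes over the whole table stayed within 1.5 times, and without 1 library they ranged from 6047 to 8285, 7231 to 8793 and 4939 to 7987 in the same order. Of 135 fold changes of the junction genes under alternatives in each comparison, 127, 133 and 134 kept their direction and side of the threshold, and 8, 2 and 0 lost the call. The lost calls were those of Lrp4 and Musk in shPkm1 and of Musk in shPkm2, given above except for those with limma on log2(TPM + 0.1), which were −0.04 for Lrp4 (adjusted p = 0.856) and −0.20 and −0.32 for Musk (0.259 and 0.0717). The direction turned for Musk in shPkm2 against shPkm1 without shPkm2 replicate 2 (0.00396; −0.3258 without replicate 1), a difference that was not called. For Utrn it turned in shPkm1 with limma on log2(TPM + 1) (0.07756) and log2(TPM + 0.1) (0.08211), in shPkm2 with library totals (0.1664), log2(TPM + 1) (0.2396) and log2(TPM + 0.1) (0.2527), and in shPkm2 against shPkm1 without shPkm2 replicate 1 (−0.01283; 0.1712 without replicate 2). The cause was not tested. Pkm in shPkm2 against shScr was called higher with library totals (0.52, adjusted p = 0.00243), with limma on log2(TPM + 1) and log2(TPM + 0.1) (0.66 in both, adjusted p = 0.000666 and 0.000592) and without shScr replicate 2 (0.31, adjusted p = 0.0282). The fall of Pkm in shPkm1 lost its call with limma (−0.24 in both, adjusted p = 0.124 and 0.121). Where a library was left out, the remaining library of its group was assumed to vary like the other groups. Src, Lama5 and Dpagt1, each higher in shPkm2 against shPkm1 (0.39, 0.41 and 0.41), lost the call without some single libraries.

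The labels do not say whether libraries with the same replicate number share more than that number. The correlations of their deviations from the group means were −0.00625, −0.00774 and 0.0677. Such values cannot show whether a culture or a run was shared. With the replicate number as a block, 7922, 8566 and 6682 genes were called, beside 7984, 8602 and 6703 without it, and 9, 9 and 7 junction genes were lower. At this depth a gene such as Chrne, with at most 2 counts, allows no statement on change.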
